A study of Mus musculus with 8 samples.

Results

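CD4 T helper cells are steered by lineage transcription factors and restrained by regulatory T cells and inhibitory receptors, and 9 genes of that program were followed here in the lungs of mice with allergic airway inflammation. They were Cd4, Gata3, Tbx21, Foxp3, Il2ra, Ctla4, Icos, Pdcd1 and Bcl6, of 22911 named genes on the array, and they were found by the RefSeq accession that the array design gives for each probe. Gata3 drives T helper 2 (Th2) cells, Tbx21 (T-bet) drives T helper 1 (Th1) cells, Foxp3 drives regulatory T cells and Bcl6 drives follicular helper T cells. Cd4 encodes the coreceptor of helper T cells, Il2ra encodes the alpha chain of the interleukin-2 receptor (CD25), and Icos encodes a costimulatory receptor of activated T cells. Ctla4 and Pdcd1 (PD-1) encode inhibitory receptors. In allergic asthma, Th2 cells release interleukins 4, 5 and 13, while regulatory T cells limit the response. Several of these genes are not particular to CD4 T cells: Gata3, Icos and Il2ra are also used by group 2 innate lymphoid cells (ILC2), Tbx21 by natural killer (NK) and CD8 T cells, and Bcl6 by germinal centre B cells and many tissue cells.

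The study asked whether feed that carries CpG oligonucleotides changes allergic airway inflammation in female BALB/c mice. NT mice received standard feed and no ovalbumin (OVA), Ctrl-F mice received standard feed with OVA, Cap-F mice received feed with carbonate-apatite particles that lacked the oligonucleotide with OVA, and ODNcap-F mice received feed with particles that held the CpG oligonucleotide MsST with OVA. All were bought at 4 weeks of age, housed for 2 weeks and fed for 70 days, and the 3 OVA groups were injected with OVA and alum on Days 42, 49 and 56 and inhaled OVA from Day 63 to Day 69. Lungs were collected on Day 70, and lung RNA of 2 mice a group was hybridized, 1 mouse per array. NT and Ctrl-F shared 1 row of the slide and Cap-F and ODNcap-F the other row, so that row and group cannot be told apart except in the comparisons of Ctrl-F with NT and of ODNcap-F with Cap-F.

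Values are log2 intensities after quantile normalization over the 8 arrays, so that a difference of 1 is a 2-fold change. A gene was called when the Benjamini-Hochberg adjusted p of a limma fit over 37116 probes was under 0.05 and the fold change was over 2. Between 61.3% and 65.0% of the probes on an array were well above background, and replicate arrays correlated at 0.994 to 0.996. Of the lung identity markers (Sftpc, Sftpb, Sftpa1, Scgb1a1, Ager and Pecam1), none was called in the OVA groups, and 3 were lower by adjusted p alone in each. Sftpc and Scgb1a1 took the same few values on the 8 arrays (17.52 to 17.64). Quantile normalization sets such values by rank, so Sftpc and Scgb1a1 say little about lung content. The 9 genes had 10 probes, all of which passed the filter on dim probes, and 8 of them were well above background on all 8 arrays. Cd4 had 2 probes, of which the brighter stands for the gene.

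Promoter sequence is shown for Pdcd1, Ctla4 and Il2ra, which rose together in all 3 OVA groups. Of the 9 genes, 7 matched a RefSeq promoter entry of build GRCm38.p6, and Cd4 and Icos did not. Each run below is the 250 bases before the annotated start site, 5′ to 3′ on the strand of the gene. Capitals mark matches to GGAAA, the core bound by NFAT factors downstream of the T cell receptor, on either strand (TTTCC on the printed strand).
Pdcd1 (chr1:94052554-94052803, minus strand): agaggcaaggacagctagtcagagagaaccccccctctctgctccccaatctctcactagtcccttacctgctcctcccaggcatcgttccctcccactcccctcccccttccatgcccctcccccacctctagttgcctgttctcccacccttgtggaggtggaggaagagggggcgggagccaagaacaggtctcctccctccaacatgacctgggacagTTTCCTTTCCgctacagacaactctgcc
Ctla4 (chr1:60908775-60909024, plus strand): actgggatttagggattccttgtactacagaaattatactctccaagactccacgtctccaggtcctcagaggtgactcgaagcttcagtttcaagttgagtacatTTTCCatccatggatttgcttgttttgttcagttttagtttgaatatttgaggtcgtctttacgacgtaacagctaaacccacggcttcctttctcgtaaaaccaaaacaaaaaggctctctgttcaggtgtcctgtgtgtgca
Il2ra (chr2:11642542-11642791, plus strand): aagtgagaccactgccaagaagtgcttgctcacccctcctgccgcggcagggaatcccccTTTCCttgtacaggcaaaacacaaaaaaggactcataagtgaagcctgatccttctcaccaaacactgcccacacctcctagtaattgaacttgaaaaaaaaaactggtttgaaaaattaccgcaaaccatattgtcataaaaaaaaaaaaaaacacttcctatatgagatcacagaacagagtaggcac
GGAAA was present in the window of all 7 genes and also in 55.6% of 32851 promoter windows of this length. Pdcd1 held 2 adjoining copies, and Ctla4 and Il2ra held 1 each. The AP-1 letters TGANTCA (6.75% of all windows) and the T-box letters GGTGTGA (3.33%) occurred in none of the 7 genes. The GATA letters TGATAA (7.94%) and AGATAA (9.99%) each occurred in 1 of the 2 windows listed for Foxp3 and in no other gene, and the STAT letters TTCNNNGAA (7.02%) occurred in windows of Foxp3 and Bcl6. Both strands were searched, and a match describes letters only.

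The inhibitory and costimulatory receptors were far above NT in every OVA-challenged mouse, whereas the lineage factors Gata3 and Tbx21 were not. Of the 9 genes, 4 were called higher in Ctrl-F than in NT (Pdcd1, Ctla4, Icos and Il2ra), where 10.4% of all probes were called higher. Those 4 and Foxp3, 5 in all, were called higher in Cap-F, where 9.53% of all probes were, and the same 5 in ODNcap-F, where 9.66% were. None of the 9 was called lower, against 11.7%, 9.59% and 10.4% of all probes. By adjusted p alone 6 genes were higher in each OVA group, against 26.5%, 24% and 25.2% of all probes for Ctrl-F, then Cap-F, then ODNcap-F. By value, 6 of the 9 genes lay higher in all 6 OVA mice than in both NT mice, an ordering seen in 29.1% of all probes. These 3 comparisons share the NT mice. In lung tissue, more or fewer cells of a type and more or less RNA per cell cannot be told apart.

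**Figure D1:**
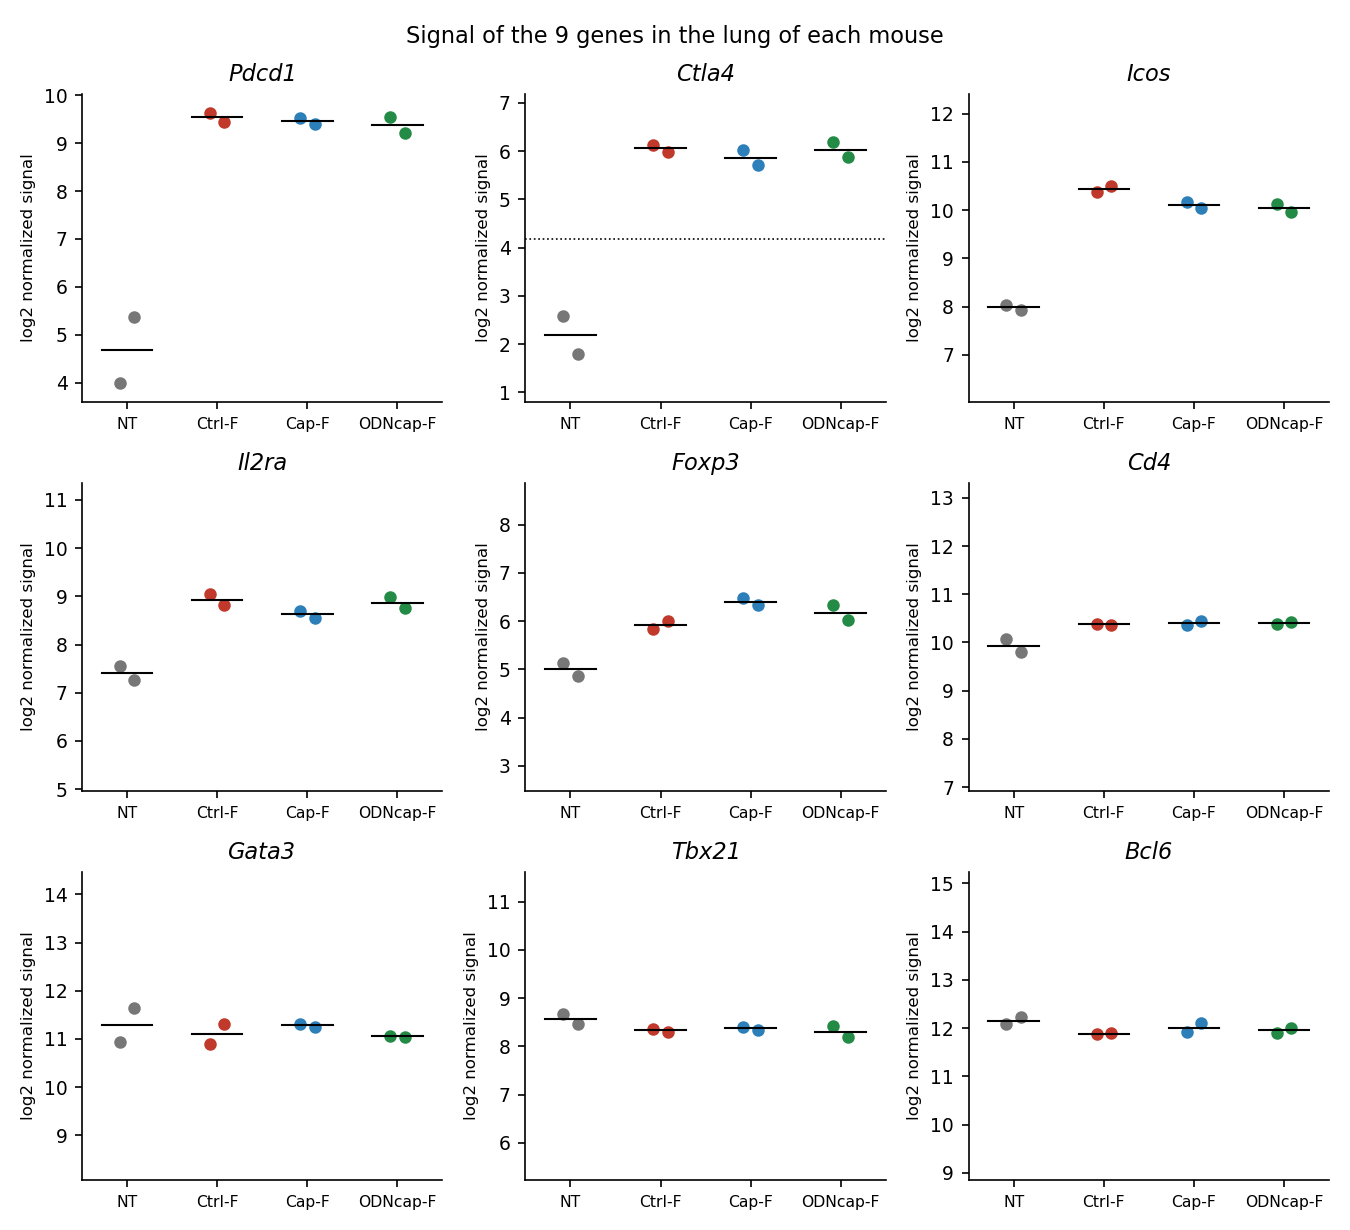
Log2 normalized signal (vertical axis, each panel on its own range, since levels of different probes are not comparable) of the 9 genes in each mouse of the 4 groups (horizontal axis); points are mice, short lines are means of 2, and the dotted line in the Ctla4 panel is the highest of the 8 arrays' lowest signals well above background, 4.18. Pdcd1, Ctla4, Icos, Il2ra, Foxp3 and Cd4 lie higher in all 6 OVA mice than in both NT mice, and Gata3 overlaps.

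Pdcd1 showed the widest gap. Its log2 signal was 3.99 and 5.37 in NT mice, 9.64 and 9.44 under Ctrl-F, 9.52 and 9.39 under Cap-F and 9.54 and 9.21 under ODNcap-F. The 6 OVA mice lay within 0.43 of each other, while the NT mice lay 1.38 apart near the lower end of detection, and the lowest OVA mouse was 3.84 above the higher NT mouse. Ctrl-F exceeded NT by 4.86 ± 0.42 (SE, n = 2 per group), a 29.0-fold difference (limma, adjusted p = 0.000249). The difference was 4.78 in Cap-F (adjusted p = 0.000319) and 4.69 in ODNcap-F (adjusted p = 0.000316). Because of the unequal NT mice, leaving out 1 mouse at a time moved the Ctrl-F difference between 4.19 and 5.56. With normexp background correction the 3 differences were 3.05, 2.93 and 2.85 and were still called.

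Ctla4, the inhibitory receptor that competes with CD28 for CD80 and CD86, was below background without OVA. Its log2 signal was 2.59 and 1.80 in NT mice, neither well above background, 6.12 and 5.99 under Ctrl-F, 6.01 and 5.71 under Cap-F and 6.19 and 5.88 under ODNcap-F. All 6 OVA mice were well above background and none overlapped NT. The fitted log2 differences, which use the NT values below background, were 3.86 in Ctrl-F (limma, adjusted p = 0.000121), 3.67 in Cap-F (adjusted p = 0.000172) and 3.84 in ODNcap-F (adjusted p = 0.000144). With NT set at the lowest signal well above background on its arrays, Ctla4 was at least 5.40-fold higher in Ctrl-F. The bound was 4.72-fold in Cap-F and 5.31-fold in ODNcap-F. These bounds were not tested. The call depended on the background correction: with normexp and an offset of 50, which is added to every signal and compresses dim probes, the log2 differences were 0.95, 0.84 and 0.96, under 2-fold.

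Icos had the smallest spread of the genes that were called. Its log2 signal was 8.04 and 7.93 in NT mice, 10.37 and 10.51 under Ctrl-F, 10.17 and 10.04 under Cap-F and 10.12 and 9.96 under ODNcap-F. Every OVA mouse exceeded both NT mice by at least 1.93, and within the OVA mice both Ctrl-F mice lay above the other 4. The differences from NT were 2.45 ± 0.097 (SE) in Ctrl-F, or 5.48-fold (adjusted p = 2.05e-05), 2.12 in Cap-F (4.34-fold, adjusted p = 3.88e-05) and 2.06 in ODNcap-F (4.16-fold, adjusted p = 4.02e-05).

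Il2ra followed with smaller differences. Its log2 signal was 7.55 and 7.27 in NT mice, 9.04 and 8.82 under Ctrl-F, 8.70 and 8.56 under Cap-F and 8.98 and 8.76 under ODNcap-F. The OVA mice were 1.01 or more above NT, Cap-F lay lowest among them, and Ctrl-F and ODNcap-F overlapped. Il2ra was 2.87-fold higher in Ctrl-F (log2 1.52 ± 0.14, adjusted p = 0.00032), 2.33-fold in Cap-F (adjusted p = 0.000836) and 2.75-fold in ODNcap-F (adjusted p = 0.000417). With normexp the Cap-F difference was 0.95, under 2-fold.

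Foxp3 was dim but above background in every mouse. Its log2 signal was 5.14 and 4.87 in NT mice, 5.83 and 5.999 under Ctrl-F, 6.48 and 6.34 under Cap-F and 6.33 and 6.03 under ODNcap-F. The order of the means was Cap-F, ODNcap-F, Ctrl-F and NT, and only the step from Ctrl-F to NT was wider than all the differences between mice of a group. Foxp3 was 2.64-fold higher in Cap-F than in NT (log2 1.40 ± 0.15, adjusted p = 0.000567) and 2.26-fold in ODNcap-F (adjusted p = 0.00102). In Ctrl-F it was 1.88-fold higher (adjusted p = 0.0026), which is under the fold threshold, and it passed that threshold without NT mouse 1 (log2 1.05). With normexp the Cap-F and ODNcap-F differences were 0.62 and 0.50, under 2-fold.

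Cd4 itself differed little. Its log2 signal was 10.08 and 9.79 in NT mice, 10.39 and 10.37 under Ctrl-F, 10.36 and 10.44 under Cap-F and 10.39 and 10.42 under ODNcap-F. The 6 OVA mice lay within 0.078 of each other and all above NT. The difference was 0.44 ± 0.10 in Ctrl-F, or 1.36-fold (adjusted p = 0.0121), 0.47 in Cap-F (adjusted p = 0.0111) and 0.47 in ODNcap-F (adjusted p = 0.0105), so that Cd4 passed the adjusted p but not the fold threshold. Without 1 mouse, the adjusted p rose to at most 0.0542, 0.0566 and 0.0469. The second Cd4 probe was dim, from 3.96 to 4.69, and was not well above background in 1 ODNcap-F mouse.

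The lineage factors of Th2, Th1 and follicular helper cells gave no call. The log2 signal of Gata3 was 10.94 and 11.65 in NT mice, 10.90 and 11.30 under Ctrl-F, 11.31 and 11.26 under Cap-F and 11.06 and 11.04 under ODNcap-F. The NT mice, 0.71 apart, spanned 5 of the 6 OVA mice. The log2 differences from NT were -0.19 (95% confidence interval -0.79 to 0.41) in Ctrl-F, -0.0091 with Cap-F and -0.24 with ODNcap-F, with adjusted p of 0.526, 0.977 and 0.429. The interval for Ctrl-F covers folds from 0.578 to 1.33, and true changes in that range are compatible with these mice.

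Tbx21 had log2 signals of 8.67 and 8.46 in NT mice, 8.37 and 8.29 under Ctrl-F, 8.41 and 8.33 under Cap-F and 8.43 and 8.18 under ODNcap-F. All 6 OVA mice lay below both NT mice, by as little as 0.034, an ordering seen in 39.6% of all probes. The differences were -0.24 ± 0.11, -0.20 and -0.26 for Ctrl-F, then Cap-F, then ODNcap-F (adjusted p = 0.119, 0.191 and 0.0966), beside a median over all probes of -0.096, -0.10 and -0.11.

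Bcl6 had log2 signals of 12.09 and 12.22 in NT mice, 11.87 and 11.90 under Ctrl-F, 11.92 and 12.10 under Cap-F and 11.90 and 12.01 under ODNcap-F. Both Ctrl-F and both ODNcap-F mice lay below NT, and Cap-F overlapped it. The difference was -0.27 ± 0.093 in Ctrl-F (0.831-fold, adjusted p = 0.0481), -0.15 in Cap-F (adjusted p = 0.222) and -0.20 in ODNcap-F (adjusted p = 0.114). Only the Ctrl-F value passed the adjusted p, and it was far from 2-fold.

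**Figure D2:**
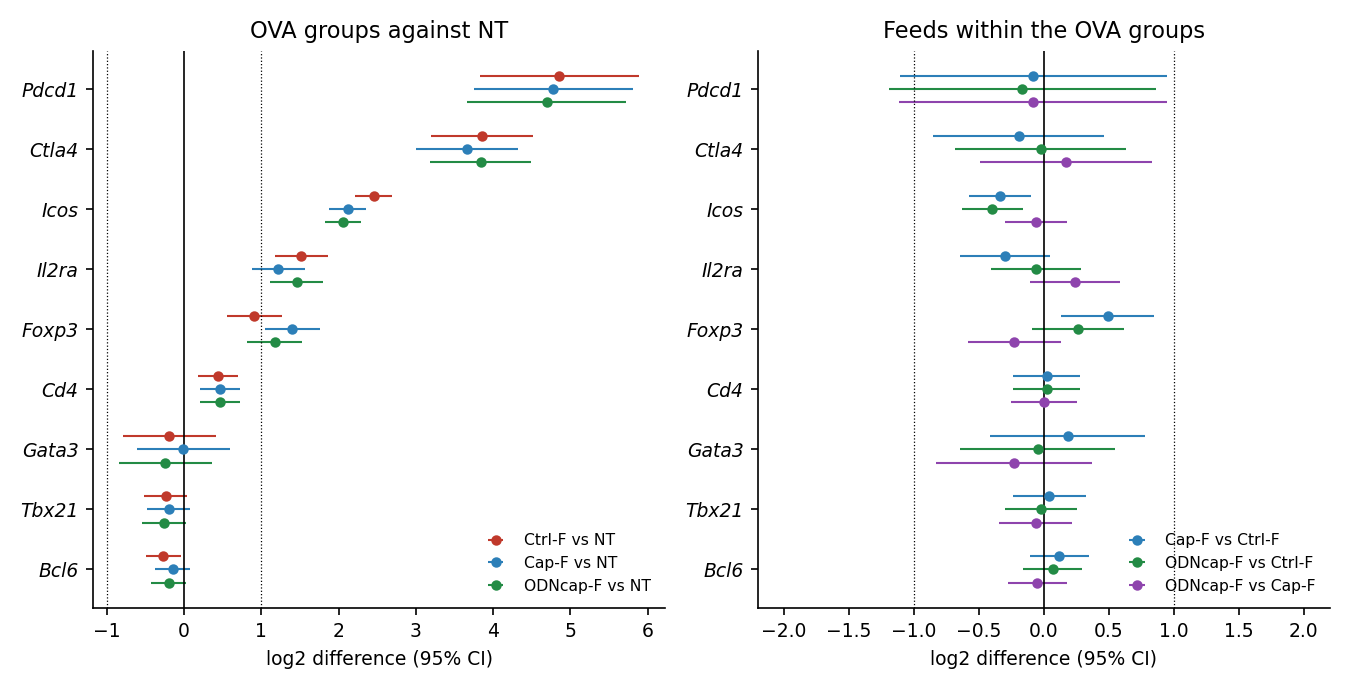
Log2 difference of group means (horizontal axis) with its 95% confidence interval (bars, limma, n = 2 mice per group) for the 9 genes, left for the OVA groups against NT and right for the 3 feed comparisons, on different ranges; dotted lines mark 2-fold. The points of Pdcd1, Ctla4, Icos and Il2ra lie beyond 2-fold in all 3 OVA groups (Ctla4 is drawn at the fitted difference, although NT was below background). No point lies beyond 2-fold on the right, although the intervals of Pdcd1 reach past it.

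The feeds were then compared among the OVA groups. None of the 9 genes was called in any of the 3 comparisons with limma, which called 0.00269% of all probes between Cap-F and Ctrl-F, 0% between ODNcap-F and Ctrl-F and 0.00269% between ODNcap-F and Cap-F. None was called with the rebuilt local-pooled-error test, which called 156, 148 and 116 of 37116 probes in the same order (0.42%, 0.399% and 0.313%). An unadjusted p under 0.05 was reached by 2, 1 and 0 of the 9 genes, against 16.2%, 6.73% and 13% of all probes. The exact permutation test of 2 mice against 2 cannot give a p below 0.333.

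Icos and Foxp3 were the genes with an unadjusted p under 0.05. Icos was lower than in Ctrl-F by 0.34 in Cap-F (log2 -0.34 ± 0.097, 95% confidence interval -0.57 to -0.099, unadjusted p = 0.0135, adjusted p = 0.214) and by 0.40 in ODNcap-F (log2 -0.40, interval -0.63 to -0.16, unadjusted p = 0.00662, adjusted p = 0.665). Both mice of each feed lay below both Ctrl-F mice, in comparisons where 51.2% (Cap-F) and 35.4% (ODNcap-F) of all probes did not overlap, and the 2 feeds overlapped, with a difference of -0.059 (interval -0.30 to 0.18). Foxp3 in Cap-F exceeded the Ctrl-F mean by 0.49 ± 0.15 (interval 0.13 to 0.85, unadjusted p = 0.0151, adjusted p = 0.219), with both Cap-F mice above both Ctrl-F mice. The ODNcap-F difference from Ctrl-F was 0.26 (interval -0.093 to 0.62, adjusted p = 0.772). Slide row cannot be told apart from feed in the comparisons with Ctrl-F. These values fail the correction over all probes.

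For the other genes the intervals show which differences are compatible with the data. Between ODNcap-F and Ctrl-F, the log2 difference of Cd4 was 0.022 (interval -0.24 to 0.28), of Tbx21 -0.022 (interval -0.30 to 0.26) and of Bcl6 0.068 (interval -0.16 to 0.30). On the fold scale the interval of Cd4 runs from 0.850 to 1.21 and that of Bcl6 from 0.895 to 1.23. For Pdcd1 the interval, -1.19 to 0.86, is wider because the shared estimate of its spread takes in the unequal NT mice, and a 2-fold decrease lies inside it. Gata3 differed by -0.049 (interval -0.65 to 0.55) and Ctla4 by -0.024 (interval -0.68 to 0.64). Between ODNcap-F and Cap-F, which share a slide row, the log2 differences of the 9 genes ran from -0.23 (Gata3) to 0.24 (Il2ra), and the lowest adjusted p was 0.524.

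The receptors were then set beside the proteins they bind. Of 8 binding partners that passed the filter on dim probes, 4 were called higher in Ctrl-F than in NT, 4 in Cap-F and 3 in ODNcap-F, with none lower. Over all probes, 10.4%, 9.53% and 9.66% were called higher in the same order. The median log2 differences of the partners were 0.99, 0.97 and 0.89. Pdcd1lg2 (PD-L2, a ligand of PD-1 on macrophages and dendritic cells) had log2 signals of 5.17 and 4.93 in NT mice, 10.82 and 11.003 under Ctrl-F, 10.62 and 10.40 under Cap-F and 10.91 and 10.74 under ODNcap-F. It rose by 5.87 ± 0.13 in Ctrl-F, or 58.3-fold (adjusted p = 4.96e-06), whereas Cd274 (PD-L1, the other PD-1 ligand) was 1.80-fold higher (log2 0.85, adjusted p = 0.00195), under the fold threshold. The difference between the ligands was not tested.

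Of the ligands shared by CTLA-4 and CD28, Cd86 was called in all 3 OVA groups (log2 1.71, 1.71 and 1.54), and Cd80 differed by 0.31, 0.33 and 0.25. Cd28, the activating receptor for both, differed by 1.08, 1.05 and 1.03. The log2 signal of Icosl, the ligand of ICOS, was 6.73 and 6.61 in NT and 6.18 and 6.30 in Ctrl-F, and it passed in no comparison (log2 -0.43, adjusted p = 0.0912 in Ctrl-F). Thus Icos rose while its ligand gave no call. Of the chains that pair with Il2ra, Il2rb differed by 1.08, 0.75 and 0.88 and Il2rg by 0.90, 1.09 and 0.90 for Ctrl-F, then Cap-F, then ODNcap-F, all passing the adjusted p. Il2, which encodes the ligand, did not pass the filter: 1 of its probes was well above background on no array and the other on 1 array.

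T cell identity genes were set beside the 9 genes as a rough reference, and whether they measure the amount of T cell RNA was not tested. Of 14 such genes (the CD3 chains and other T cell receptor signaling genes), 3 were called higher in Ctrl-F, 6 with Cap-F and 2 with ODNcap-F, with medians of 0.73, 0.97 and 0.67. Over all probes, 10.4%, 9.53% and 9.66% were called higher and 11.7%, 9.59% and 10.4% lower, in the same order. These shares also stand beside the counts of the lists below. By adjusted p alone 11, 12 and 11 of the 14 were higher, against 26.5%, 24% and 25.2% of all probes. The largest of all these differences was 1.26. Pdcd1, Icos and Il2ra in Ctrl-F (4.86, 2.45 and 1.52), and the bound for Ctla4 (2.43), lie above that value. Foxp3 in Ctrl-F (0.91) lies below that value and above the list's median. Cd4 (0.44), Gata3, Tbx21 and Bcl6 (-0.27) lie below the list's median. Whether the 9 genes differ from the list was not tested.

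**Figure D3:**
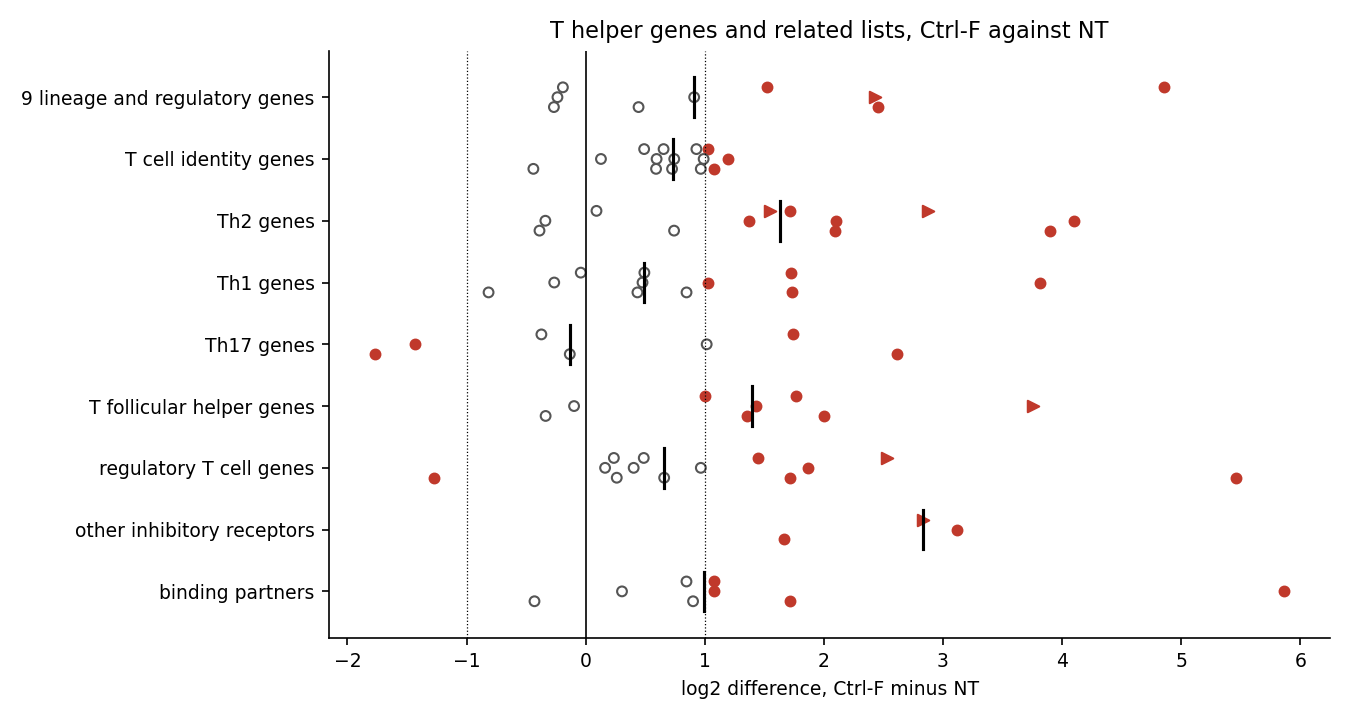
Log2 difference of Ctrl-F minus NT (horizontal axis) for the 9 genes and for each list (rows). Filled red marks are genes called in that comparison, open circles are genes not called, triangles are called genes drawn at their lower bound because both NT mice were below background, black bars are medians with those bounds, and dotted lines mark 2-fold; the T cell identity genes lie between -0.44 and 1.19, and Pdcd1 at 4.86.

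Th2 cytokines rose, whereas Gata3 gave no call. Of 12 Th2 genes, 8 were called higher in each OVA group and none lower, and their median log2 differences were 1.90, 1.68 and 1.48 (1.63, 1.41 and 1.28 with the genes below background in NT at their bounds). Il4 was 5.16 and 5.42 in NT and 9.11 and 9.28 in Ctrl-F, a difference of 3.90 ± 0.12 (adjusted p = 8.69e-06). Il5 and Il13, which drive eosinophils and mucus, were below background in NT and at least 7.35-fold and 2.93-fold higher in Ctrl-F. Irf4, a factor of activated T and B cells and of dendritic cells, rose by 4.10. Il1rl1, the interleukin-33 receptor carried by Th2 cells, regulatory T cells and ILC2, rose by 2.10, and Ccr8, a chemokine receptor of Th2 and regulatory T cells, by 2.09.

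Of 11 Th1 genes, 4 were called higher in each OVA group (Cxcr6, Runx3 and Ifng among them), and 0, 1 and 1 lower for Ctrl-F, then Cap-F, then ODNcap-F. The gene called lower in Cap-F was Il18r1 (log2 -1.23, adjusted p = 0.000145). The gene called lower in ODNcap-F was Il12rb2 (fitted log2 -1.14), which was below background in both ODNcap-F mice, and the NT mean did not lie above the floor, so no fold is given. Il12rb2 passed the filter only through NT, so a call in ODNcap-F could only be lower. Its part in the count is no separate support. The medians were 0.49, 0.74 and 0.55. Ifng, the signature cytokine of Th1 and NK cells, was 6.47 and 6.18 in NT mice, 7.37 and 7.32 under Ctrl-F, 7.84 and 7.59 under Cap-F and 7.57 and 7.59 under ODNcap-F. All 6 OVA mice lay above NT, while Tbx21, which controls Ifng in Th1 cells, was not higher. By quantitative PCR of lung Ifng in more mice, the paper reports a level in ODNcap-F near baseline, unlike the array values.

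Of 7 Th17 genes that passed the filter, 2 were called higher in Ctrl-F (Ccr6 and Batf) and 2 lower. In Cap-F 3 were called higher and 1 lower, and in ODNcap-F 2 higher and 2 lower. Il17a, called in Cap-F only, was below background in NT and at least 2.81-fold higher in Cap-F. Rora, which ILC2 also need, fell by 1.43 in Ctrl-F. Il17f, Il22 and Il23r did not pass the filter.

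Of 8 follicular helper genes, 6 were called higher in each OVA group, with medians of 1.39, 1.49 and 1.18. Il21, the cytokine that helps germinal centre B cells, was below background in NT and at least 13.6-fold higher in Ctrl-F. Cxcr5, which brings T and B cells into follicles, rose by 1.77, and Slamf6 and Sh2d1a, a receptor and an adaptor of T-B contact, by 2.00 and 1.36. Bcl6, which is the factor of these cells, gave -0.27 beside them. Ascl2 and Tox2, also of the list, were not called either. For Ctrl-F, then Cap-F, then ODNcap-F, Ascl2 differed by -0.097, -0.35 and -0.32, and Tox2 by -0.34, -0.61 and -0.061. Ascl2 was lower by adjusted p alone in Cap-F and ODNcap-F. Cd40lg, the T cell signal to B cells, was well above background on no array.

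Of 13 regulatory T cell genes, 5 were called higher and 1 lower in each OVA group, and the medians were 0.66, 0.65 and 0.55. Tnfrsf9 (4-1BB, a costimulatory receptor of activated T cells) rose by 5.46 in Ctrl-F, and Tnfrsf4 (OX40) and Tnfrsf18 (GITR) rose by 1.72 and 1.45. Il10 was below background in NT and at least 5.78-fold higher in Ctrl-F. Lrrc32, which holds latent TGF-beta on the surface of regulatory T cells and is also made by endothelium, fell by 1.28. Ikzf2 and Ikzf4, transcription factors of regulatory T cells, differed by 0.49 and 0.16 and were not called, and Foxp3 lay at 0.91.

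Other inhibitory receptors were read beside Pdcd1 and Ctla4. All 3 that passed the filter were called higher in each OVA group, but Tigit passed it only through the OVA groups. The same holds for Ctla4, Il5, Il13, Il21, Il10 and Il17a above. Calls of these genes against NT could therefore only be higher, and their part in the counts is no separate support. Tigit was below background in NT and at least 7.14-fold higher in Ctrl-F, Lag3 rose by 3.12 and Havcr2 (TIM-3, also carried by macrophages and dendritic cells) by 1.67. Cd160 was well above background on no array. In the feed comparisons no gene of the lists above was called. All lists were chosen with earlier results of these data known.

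Markers of other cells were read in the same comparisons. Over all probes, 10.4%, 9.53% and 9.66% were called higher for Ctrl-F, then Cap-F, then ODNcap-F, and 11.7%, 9.59% and 10.4% lower. Of 6 B cell markers 5 were called higher in each OVA group, with a median of 1.96 in Ctrl-F, and their mean log2 level was 8.71 to 9.19 in NT and 10.56 to 10.93 over the OVA mice. Of 5 germinal centre markers 2 were called higher, Mybl1 by 1.98 in Ctrl-F. Of 7 macrophage and dendritic cell markers 4 were called higher (Itgax by 3.37 and Cd68 by 2.22) and Marco lower, and the mean level was 10.08 to 10.13 in NT and 10.61 to 10.80 over the OVA mice. Of 6 ILC2 markers 3 were called higher and Rora lower, with Arg1, which macrophages also make, at 8.70. NK cell markers went the other way: 3 of 4 were called lower in Ctrl-F, 1 with Cap-F and 2 with ODNcap-F, Ncr1 by 1.24, Klrb1c by 1.16 and Klre1 by 1.07 in Ctrl-F. Of 8 cytotoxic T cell markers 1 (Gzmk) was called higher, and Gzma, Cd8b1 and Nkg7 were lower by adjusted p alone in Ctrl-F. Gzmk was below background in both NT mice, and its bound was at least 1.53-fold in Ctrl-F, under the fold threshold, at least 3.03-fold with Cap-F and at least 2.49-fold with ODNcap-F. The part of these cells in the levels of the 9 genes was not tested.

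Across the 8 mice, the genes whose pattern was most like that of each of the 9 were ranked by Pearson's r among 16562 named genes, as a description. Where a gene steps between NT and OVA, all points share that step. Gata3 showed no such step, and its r follows differences between single mice. For Tbx21 these were Txk (r = 0.995), a kinase of T and NK cells, Taf8 and Cmtm5. For Gata3 they were Ybx3 (r = 0.979), Rspo3 and Cnih1, and for Bcl6 Ccp110 (r = 0.977), Twist2 and Hspb11. For Pdcd1 they were Gm4827 (r = 0.998), Nuggc, a GTPase of germinal centre B cells, and Cxcl3, a neutrophil chemokine. For Ctla4 they were Creb3l3 (r = 0.999), Lair1 and Ctse, for Icos Wdr91 (r = 0.999), Cyba and Sirpa, and for Il2ra Tmem192 (r = 0.997), Taf9 and Nubp1. For Foxp3 they were C1ra (r = 0.995), Tex10 and Rps6, and for Cd4 Chmp1a (r = 0.992), Tub and Prss16.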

How the data were processed

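Lung RNA was hybridized to single-color Agilent SurePrint G3 Mouse 8x60K arrays, and all 8 arrays lay on 1 slide and were scanned together. Per array, the authors deposited the intensity of every spot after background subtraction by Agilent Feature Extraction 11.0, with the raw median signals and flags, and a series-wide log2 file of 32312 probes after quantile normalization. Here 792 flagged spot values were set to missing, and intensities were taken to log2, averaged over 56605 probes and quantile normalized. A probe was kept where some group had it well above background in both mice (37116 probes). Genes were named through RefSeq accessions, which named 24290 kept probes. Values quantile normalized over the 32312 deposited probes alone differed from the deposited log2 values by at most 0.12. The values used here, normalized over 56605 probes, were not compared in this way. The lowest log2 signal well above background lay between 3.61 and 4.18, and no spot was saturated. The precision is limited by the number of arrays.

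One limma fit (limma 3.58.1, R 4.3.3, data.table version 1.17.8, statmod 1.5.0) took all 8 arrays with 4 groups and no covariate, with 4 residual and 1.96 prior degrees of freedom. Calls needed both a Benjamini-Hochberg adjusted p below 0.05 and more than a 2-fold change. The methods' local-pooled-error test was rebuilt with 100 intensity bins as an alternative. Other alternatives were 75th percentile scaling, normexp with an offset of 50, the deposited table, other filters, the replicate block, an intensity trend, fewer groups, the mean of a gene's probes and each mouse left out. Mice of a group are separate animals, and the spread rests on 2 of them. The 9 genes and all lists were chosen with earlier results of these data known. Named list genes were those called, at most 6 per list by size of the difference between Ctrl-F and NT, together with all binding partners. A few uncalled genes are named where a list's factors or markers were described, after their values were seen. Protein sequences were not used here. Some genes of the lists are not reported here.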

Additional observations from a re-analysis of the deposited data

How the results depend on the processing

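The counts of the 9 genes called against NT were 4 (Ctrl-F), 5 (Cap-F) and 5 (ODNcap-F). With normexp they were 3, 2 and 3, and with the deposited table or a filter on all arrays 3, 4 and 4, since Ctla4 is not among those probes. Replicate numbers did not pair the mice (r of deviations -0.012 to 0.16), and the replicate block gave 4, 5 and 5 calls and 0 in the feed comparisons. With 1 mouse left out the counts were 4 to 5, 5 to 5 and 5 to 5, and 0 to 0 in each feed comparison; Foxp3 in Ctrl-F without NT mouse 1 made the fifth. Of 1014 alternative values of single genes, 978 kept direction and call.

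The 29 values that changed direction were differences that had not been called. With 75th percentile scaling Cd4 in Cap-F vs Ctrl-F was -0.013, with the mean of its probes Cd4 in ODNcap-F vs Cap-F was -0.16, and with normexp Tbx21 in Cap-F vs Ctrl-F was -0.0065, Ctla4 in ODNcap-F vs Ctrl-F 0.0042 and Icos in ODNcap-F vs Cap-F 0.039. With 1 mouse left out, Gata3 ran from -0.55 to 0.17 (Ctrl-F vs NT), -0.37 to 0.35 (Cap-F vs NT), -0.60 to 0.12 (ODNcap-F vs NT), -0.021 to 0.38 (Cap-F vs Ctrl-F) and -0.25 to 0.15 (ODNcap-F vs Ctrl-F). In ODNcap-F vs Ctrl-F, Tbx21 ran from -0.14 to 0.10, Il2ra from -0.17 to 0.051, Ctla4 from -0.18 to 0.13 and Pdcd1 from -0.33 to 0.00032. In ODNcap-F vs Cap-F, Cd4 ran from -0.038 to 0.040, Tbx21 from -0.19 to 0.060, Icos from -0.14 to 0.020, Pdcd1 from -0.25 to 0.083 and Bcl6 from -0.14 to 0.039. In Cap-F vs Ctrl-F, Cd4 ran from -0.018 to 0.060 and Pdcd1 from -0.18 to 0.015. With 2 mice a group, dim probes such as Ctla4 in NT have only a bound.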
